A study of Homo sapiens with 6 samples.

Results

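The enzymes and regulators that make, restrain and break down polyamines were followed in C4-2 cells, a human prostate cancer cell line of the LNCaP lineage. The group was chosen by gene name and holds 10 genes: ODC1, AMD1, SRM, SMS, OAZ1, OAZ2, AZIN1, SAT1, PAOX and SMOX. All 10 were found among the 28503 lines of the expression table, and all 10 stood at 1 FPKM or more in each of its 5 columns. FPKM counts sequenced fragments, corrected for the length of the transcript and the depth of the library. The conditions were GSK126, an inhibitor of the catalytic activity of EZH2; astemizole, an antihistamine reported to disturb the pairing of EZH2 with EED; lentivirus with EZH2 shRNA, of which the labels list 2 hairpins; lentivirus with a scramble shRNA, the control for the knockdown; and vehicle, the control for both drugs. EZH2 is the enzyme of a Polycomb complex that methylates histones, and EED is its core partner. Cells were used at passages 10 to 15, in medium with serum, and no dose or time of treatment is given in the sources used here. Each condition has 1 value, and the knockdown is a single column that names no hairpin; whether it holds both hairpin libraries, and in what way they were combined, is unknown. So the differences lack any replicate check and are given without a test or p-value.

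Polyamines are small, positively charged molecules that bind nucleic acids and are needed for growth. Ornithine decarboxylase (ODC1) makes putrescine, S-adenosylmethionine decarboxylase (AMD1) supplies the aminopropyl groups, and spermidine synthase (SRM) and spermine synthase (SMS) add these groups in turn. Antizymes hold the pathway in check by carrying ornithine decarboxylase to the proteasome, and acetylation and oxidation return the higher polyamines to putrescine. Luminal cells of the prostate make and secrete polyamines in unusually large amounts, spermine above all, and ornithine decarboxylase is a known androgen-responsive enzyme there.

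The knockdown label was checked on EZH2, which stood at 17.5 FPKM with GSK126, 9.48 with astemizole, 3.35 in the knockdown column, 24.6 with scramble shRNA and 26.5 with vehicle. The level of EZH2 does not check the labels of the other columns. The luminal keratin gene KRT8, a marker of the prostate line, was at 255 FPKM or more in every column. Liver markers stood apart in a pair of columns: the summed FPKM of 10 such genes was 185 with GSK126, 5.69 with astemizole, 3.27 in the knockdown column, 2.09 with scramble shRNA and 21.5 with vehicle. Of those 10 genes, 9 were at 1 FPKM or more with GSK126 and 6 with vehicle, against 1 or 2 in each of the other columns, where between 1 and 4 of them were listed at 0. Read totals are not in the table, so the depth behind each value is unknown. Ratios below are log2 of FPKM + 1 in a condition over FPKM + 1 in its control, over the 12943 genes that reached 1 FPKM in some column. This scale understates the differences of low genes.

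The polyamine genes spanned a wide range of levels. OAZ1, the gene of antizyme 1, and ODC1 were at the top, with ranks of 85 and 95 among all genes compared in the vehicle column, at 1505 and 1274 FPKM. SRM, SMS and AMD1 followed with vehicle at 286, 265 and 258 FPKM, then SAT1 at 78.8, OAZ2 at 75.2 and AZIN1 at 41.4 FPKM. The oxidase genes PAOX and SMOX were the lowest, at 6.86 and 1.22 FPKM. With scramble shRNA the order was the same at the top and bottom, but SMS at 321 FPKM stood above AMD1 at 214 and SRM at 199, so the order of these 3 genes cannot be read as settled.

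**Figure D1:**
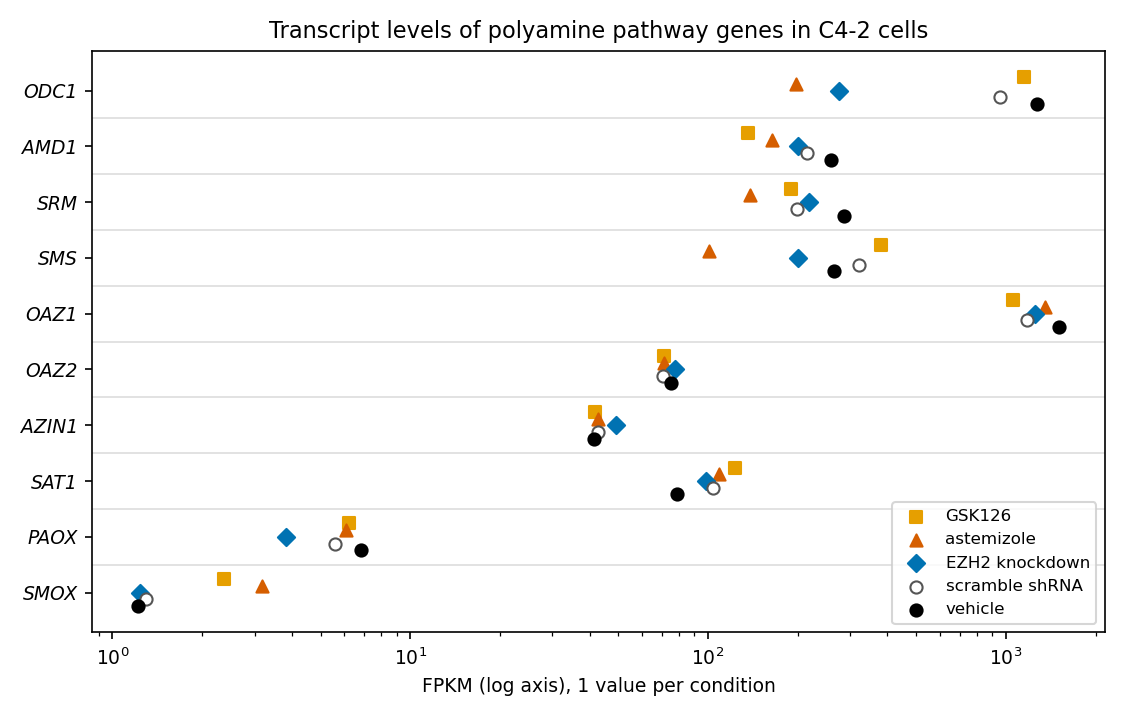
FPKM of each gene on a log axis, with 1 point per condition (squares GSK126, triangles astemizole, diamonds EZH2 knockdown, open circles scramble shRNA, filled circles vehicle). ODC1 lies at 198 and 276 FPKM with astemizole and in the knockdown column, apart from the other 3 columns at 958 to 1274 FPKM, while OAZ2 and AZIN1 hardly spread.

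ODC1, the gene of the rate-limiting enzyme, varied most. It stood at 1155 FPKM with GSK126, 198 with astemizole, 276 in the EZH2 knockdown column, 958 with scramble shRNA and 1274 with vehicle. The astemizole and knockdown values lay below both controls, and the GSK126 value lay between the controls. With astemizole ODC1 was at 15.6% of its vehicle level, a log2 ratio of -2.68, and 56 of the 12943 genes had a lower ratio. In the knockdown column it was at 28.8% of its scramble level, a log2 ratio of -1.79, with 249 genes lower. With GSK126 the log2 ratio was -0.14 with vehicle as control and 0.27 with the scramble column as control. Between the control columns it was -0.41, scramble shRNA against vehicle. Set directly against GSK126, which shares the vehicle control, astemizole gave -2.54 for ODC1, and 28 genes had a lower ratio. Of the 10 genes, ODC1 and SMS (-1.90) were the 2 at least 2-fold lower with astemizole than with GSK126, where 3.28% of all genes were. Over the 5 columns the highest ODC1 value was 6.43 times the lowest, and 212 genes of all those compared had a wider spread of FPKM + 1. In bulk RNA, fewer cells that express a gene and less of its RNA per cell cannot be told apart.

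Proliferation genes were lower with both drugs and in the knockdown column. With GSK126, 5 of 16 such genes were at least 2-fold lower (median log2 ratio -0.83), where 0.950% of all genes were, and 15 of 16 were at least 1.5-fold lower, where 6.39% were. All 16 were at least 2-fold lower with astemizole (median -2.61), where 5.50% of all genes were, and all 16 in the knockdown column (median -3.03), where 5.11% were. With GSK126, ODC1 thus stood near vehicle while these genes were lower than vehicle. Scramble shRNA was itself lower than vehicle on this list, with a median of -0.30. Of the 16 genes, 5 were at least 1.5-fold lower there, where 6.04% of all genes differed as much in either direction. The size of the GSK126 difference on this list therefore depends on the control. Over 15 androgen-induced genes the median was 0.22 with GSK126, -0.79 with astemizole and -0.65 with knockdown, and 0, 5 and 4 of them were at least 2-fold lower. Scramble shRNA against vehicle had a median of 0.34 on this list, more than GSK126 against vehicle. The medians on this list therefore depend on the control as well. KLK3, which encodes prostate-specific antigen, was at 3112 FPKM with GSK126, 1230 with astemizole, 1635 in the knockdown column, 2796 with scramble shRNA and 2675 with vehicle. MYC, a transcription factor known to activate ODC1, was at 94.4 FPKM with GSK126, 61.2 with astemizole, 101 in the knockdown column, 99.4 with scramble shRNA and 114 with vehicle. The MYC log2 ratio was -0.26 with GSK126, -0.88 with astemizole and 0.02 with knockdown. MYC thus stood lower beside ODC1 with astemizole and within 0.02 of its control in the knockdown column. The part of any of these genes in the ODC1 result was not tested.

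The start regions of the synthesis genes that were at least 2-fold lower with astemizole (ODC1, SMS and SRM) are shown because these 3 genes stood lower together in that column. They come from RefSeq on build GRCh38.p14, whereas the expression table was made on hg19. RefSeq windows were found for 7 of the 10 genes, and 3 of those 7 are shown. The stretches lie at chr2:10448328-10448577 (minus strand) before the first ODC1 start, chr2:10447993-10448062 (minus strand) around a second ODC1 start, chrX:21940459-21940708 (plus strand) before SMS and chr1:11060019-11060268 (minus strand) before SRM. Capitals mark CACGTG, the E-box bound by MYC with MAX, and TATAA.
ODC1 first start: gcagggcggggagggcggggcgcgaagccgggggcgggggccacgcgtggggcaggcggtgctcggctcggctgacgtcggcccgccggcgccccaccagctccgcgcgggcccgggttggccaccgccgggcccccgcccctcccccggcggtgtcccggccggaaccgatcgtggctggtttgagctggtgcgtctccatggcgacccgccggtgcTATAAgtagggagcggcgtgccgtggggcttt
ODC1 second start: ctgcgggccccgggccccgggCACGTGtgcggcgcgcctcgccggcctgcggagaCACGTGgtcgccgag
SMS: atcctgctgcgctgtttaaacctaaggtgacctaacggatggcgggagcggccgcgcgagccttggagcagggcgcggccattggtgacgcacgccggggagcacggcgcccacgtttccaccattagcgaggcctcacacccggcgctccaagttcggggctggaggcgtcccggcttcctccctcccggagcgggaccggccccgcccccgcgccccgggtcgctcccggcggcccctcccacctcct
SRM: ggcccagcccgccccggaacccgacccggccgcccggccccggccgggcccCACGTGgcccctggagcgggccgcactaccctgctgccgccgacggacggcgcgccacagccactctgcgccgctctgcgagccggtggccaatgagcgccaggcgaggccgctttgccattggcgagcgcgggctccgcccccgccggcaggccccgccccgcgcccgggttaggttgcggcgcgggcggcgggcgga

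The ODC1 stretch at the first start held TATAA beginning 32 bases before the start and no CACGTG. The stretch around the second start held CACGTG beginning 29 bases before it and again at base 6 after it, counted from 1 at the start. Both lie in no GENCODE exon, 80 and 114 bases past the end of the first exon of ODC1. SRM held CACGTG beginning 199 bases before its start, and SMS held none. CACGTG reads the same on both strands, TATAA was searched on the gene's strand, and none of the matches shown overlap. Among the genes whose windows were used but are not shown, AMD1, OAZ1, OAZ2 and SAT1 held no CACGTG before their starts, and AMD1 held TATAA. A further short motif, AGAACA, was searched on both strands and was found before none of the starts of the 7 genes. Over 35116 RefSeq windows, 6.34% held CACGTG in the 250 bases before the start, 13.6% held TATAA and 12.4% held AGAACA. These matches describe the letters and say nothing of binding in these cells.

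Astemizole against vehicle gave the widest differences in the pathway. Levels 2-fold or more below vehicle were found for 3 of the 10 genes and above it for 0, where 5.50% of all genes compared were lower and 3.54% higher by 2-fold or more. The 3 were ODC1, SMS and SRM, all enzymes of synthesis. AMD1, the remaining enzyme of synthesis, was lower by less, and the antizyme genes were close to their control. The median log2 ratio over the 10 genes was -0.16, beside -0.06 over all genes.

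SMS, which turns spermidine into spermine, stood at 380 FPKM with GSK126, 101 with astemizole, 201 in the knockdown column, 321 with scramble shRNA and 265 with vehicle. The astemizole and knockdown values lay below both controls and the GSK126 value above both. Its log2 ratio was -1.38 with astemizole (367 genes had a lower one) and -1.66 when astemizole was set against the scramble column. SRM, which makes spermidine, stood at 189 FPKM with GSK126, 138 with astemizole, 218 in the knockdown column, 199 with scramble shRNA and 286 with vehicle. The vehicle value was the highest of the 5 and the astemizole value the lowest. SRM had a log2 ratio of -1.04 with astemizole against vehicle, just past 2-fold, but -0.52 against the scramble column, and scramble shRNA itself had -0.52 against vehicle. AMD1 stood at 136 FPKM with GSK126, 164 with astemizole, 200 in the knockdown column, 214 with scramble shRNA and 258 with vehicle. Its lowest value was thus the GSK126 one, unlike those of the other enzymes of synthesis. The AMD1 log2 ratio with astemizole was -0.65 against vehicle and -0.38 against the scramble column.

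At 1.5-fold or more, 5 of the 10 genes differed with astemizole, 4 lower and 1 higher, where 14.6% of all genes compared were lower and 10.5% higher. The higher one was SMOX, spermine oxidase, which degrades spermine directly and releases hydrogen peroxide. It stood at 2.38 FPKM with GSK126, 3.18 with astemizole, 1.24 in the knockdown column, 1.30 with scramble shRNA and 1.22 with vehicle. Both drug values were above the other 3, which lay close together. The log2 ratio with astemizole was 0.91 with FPKM + 1, and with a pseudocount of 0.1 FPKM it was 1.31, past 2-fold. SMOX is the lowest gene of the group, and how many fragments lie behind these values is unknown.

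**Figure D2:**
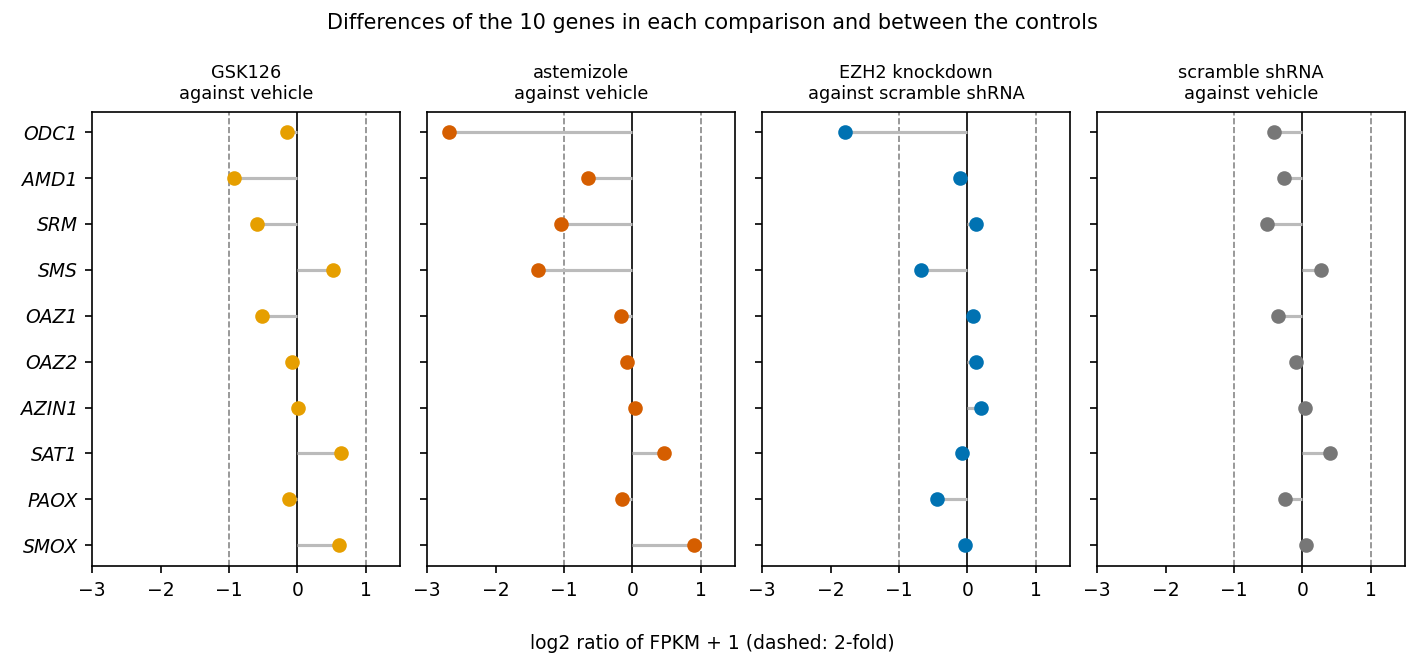
Log2 ratios of FPKM + 1 for the 10 genes in the 3 comparisons and, at the right, between the control columns; dashed lines mark 2-fold. ODC1, SMS and SRM pass the line with astemizole (-2.68, -1.38 and -1.04), only ODC1 passes it with knockdown (-1.79), and none passes it with GSK126 or between the controls.

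The knockdown column against scramble shRNA gave 1 of 10 genes at least 2-fold lower, ODC1, and 0 higher, where 5.11% of all genes compared were lower and 1.95% higher by as much. A count of 1 in 10 is close to that background share. SMS had a log2 ratio of -0.67 against scramble shRNA and -0.40 against vehicle. At 1.5-fold or more these 2 genes were lower, where 11.7% of all genes were. AMD1 and SRM differed little, at -0.10 and 0.13, and SRM had -0.39 against the vehicle column, so its sign depended on the control. PAOX, which oxidises acetylated polyamines in peroxisomes, stood at 6.24 FPKM with GSK126, 6.07 with astemizole, 3.84 in the knockdown column, 5.59 with scramble shRNA and 6.86 with vehicle. The knockdown value was the lowest of the 5, with a log2 ratio of -0.45. The median over the 10 genes was -0.06, beside 0.03 over all genes.

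GSK126 against vehicle, the same vehicle column as for astemizole, gave 0 of 10 genes at 2-fold or more, where 2.00% of all genes compared were. The median log2 ratio over the 10 genes was -0.10, beside -0.04 over all genes. At 1.5-fold or more, 4 of the 10 differed, AMD1 (-0.92) and SRM (-0.59) lower and SAT1 (0.64) and SMOX (0.60) higher, where 6.39% of all genes were lower and 4.93% higher. AMD1 came nearest to 2-fold, at 52.6% of its vehicle level with 190 genes lower, and stayed lower against the scramble column at -0.65. SRM had -0.07 and SMOX 0.56 against the scramble column. SAT1, the acetyltransferase that starts polyamine breakdown, stood at 123 FPKM with GSK126, 109 with astemizole, 98.7 in the knockdown column, 104 with scramble shRNA and 78.8 with vehicle. Here vehicle was the odd value, below the other 4, and the SAT1 log2 ratio of GSK126 against the scramble column was 0.24. With the scramble column as control, AMD1 was thus the 1 gene of the 10 still past 1.5-fold. For SAT1 with astemizole the values were 0.47 (vehicle as control) and 0.07 (scramble column as control). SMS had 0.52 with GSK126 against vehicle, or 0.24 if the scramble column served as control. The control columns themselves differed by -0.52 (SRM) to 0.40 (SAT1) over the 10 genes, with none at 1.5-fold or more, where 6.04% of all genes were. The liver markers that stood highest with GSK126 had a median log2 ratio of 2.57 over 9 genes compared, 8 of them at least 2-fold higher, and their part in these values was not tested. When the columns were rescaled to an equal sum, the median of all genes with GSK126 moved by 0.19 and 2-fold or more was reached upward by 285 genes and downward by 71, in place of 136 and 123. On that scale AMD1 had -0.71 and SAT1 0.86, and ODC1, whose ratio was near 0, changed sign.

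**Figure D3:**
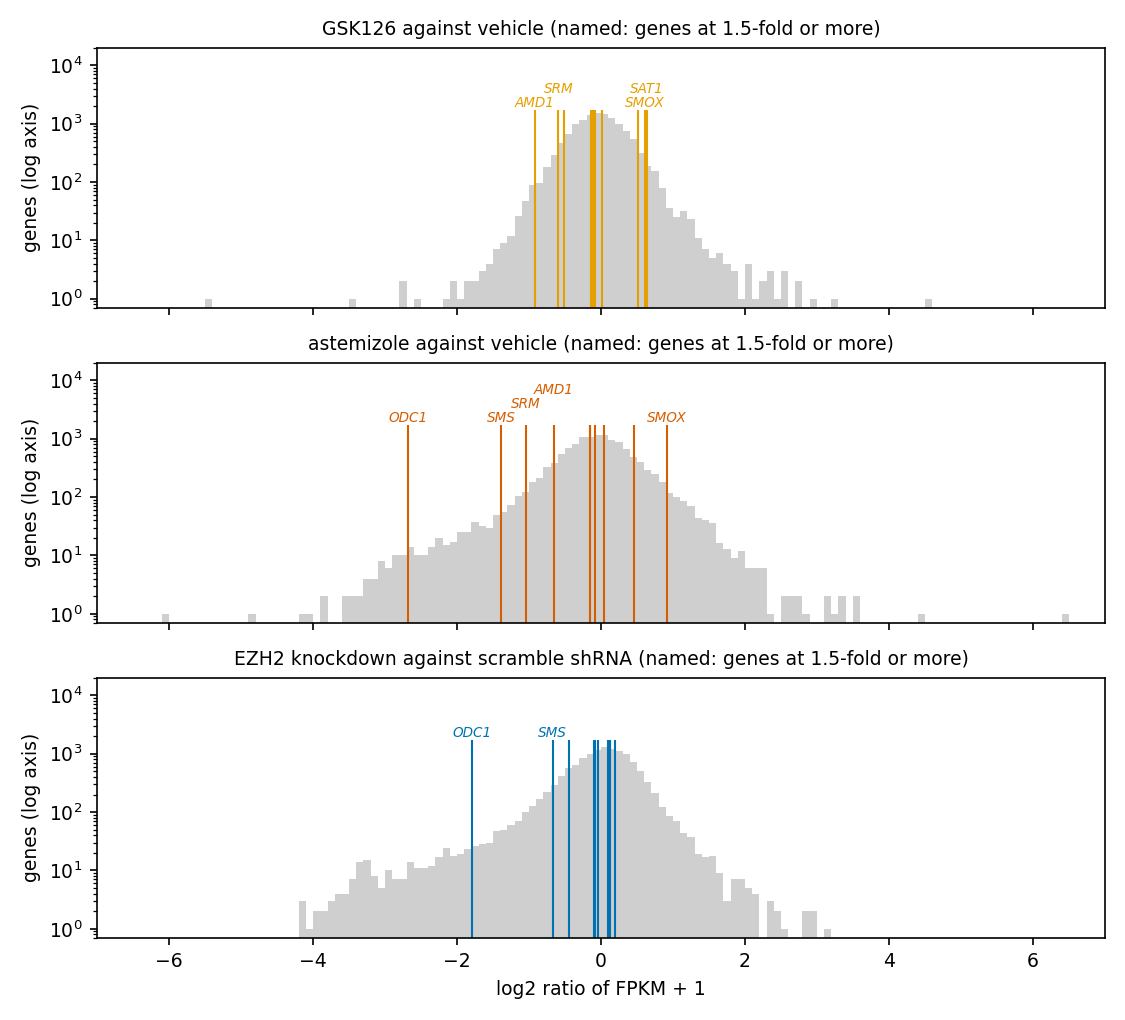
Histograms of the log2 ratio of FPKM + 1 over the 12943 genes compared (grey, log count axis), with coloured lines at the 10 polyamine genes and names at those past 1.5-fold. ODC1 lies in the lower tail with astemizole (56 genes lower) and with knockdown (249 genes lower), and near the middle with GSK126.

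The antizyme genes and the antizyme inhibitor gene did not reach 2-fold in any of the 3 comparisons. OAZ1 stood at 1055 FPKM with GSK126, 1348 with astemizole, 1255 in the knockdown column, 1178 with scramble shRNA and 1505 with vehicle. Its log2 ratios were -0.51 with GSK126, -0.16 with astemizole and 0.09 with knockdown, and those with astemizole and knockdown changed sign with the other control. OAZ2, a second antizyme gene, stood at 71.1, 71.2, 77.3, 70.4 and 75.2 FPKM in the same order of columns, so that its highest value was 1.10 times its lowest, and 12857 of the 12943 genes had a wider spread. AZIN1 encodes an antizyme inhibitor, a relative of ornithine decarboxylase without its activity that binds antizyme in its place. It stood at 41.8 FPKM with GSK126, 42.6 with astemizole, 48.9 in the knockdown column, 42.5 with scramble shRNA and 41.4 with vehicle, with 12456 genes more widely spread. The knockdown value was the highest, and the other 4 lay close together. Antizyme protein depends on a programmed ribosomal frameshift that polyamines promote, which transcript levels do not show.

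Because a ratio of levels within 1 column does not depend on how columns are scaled, ODC1 was also set against OAZ1. The FPKM ratio of ODC1 to OAZ1 was 1.09 with GSK126, 0.147 with astemizole, 0.220 in the knockdown column, 0.813 with scramble shRNA and 0.847 with vehicle. Both controls and GSK126 thus had about as much ODC1 as OAZ1 transcript per length, and the astemizole and knockdown columns had several times less. The ratio of SAT1 to ODC1 was 0.107, 0.551, 0.358, 0.109 and 0.0619 in the same order. It was highest with astemizole, followed by the knockdown column.

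Summed over roles, the 4 synthesis genes had 1860 FPKM with GSK126, 601 with astemizole, 895 in the knockdown column, 1693 with scramble shRNA and 2083 with vehicle. Their share of the summed level of all 10 genes was 58.9% with GSK126, 27.6% with astemizole, 37.6% in the knockdown column, 54.7% with scramble shRNA and 54.9% with vehicle. ODC1 alone made up 36.5%, 9.08%, 11.6%, 31.0% and 33.6% in that order. Without ODC1, the other synthesis genes (AMD1, SRM and SMS) summed to 705, 403, 619, 735 and 809 FPKM. Without ODC1, too, the astemizole and knockdown columns had the lowest sums, with a smaller gap in FPKM to their controls. The breakdown genes SAT1, PAOX and SMOX summed to between 86.9 FPKM with vehicle and 132 FPKM with GSK126, nearly all of it SAT1.

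**Figure D4:**
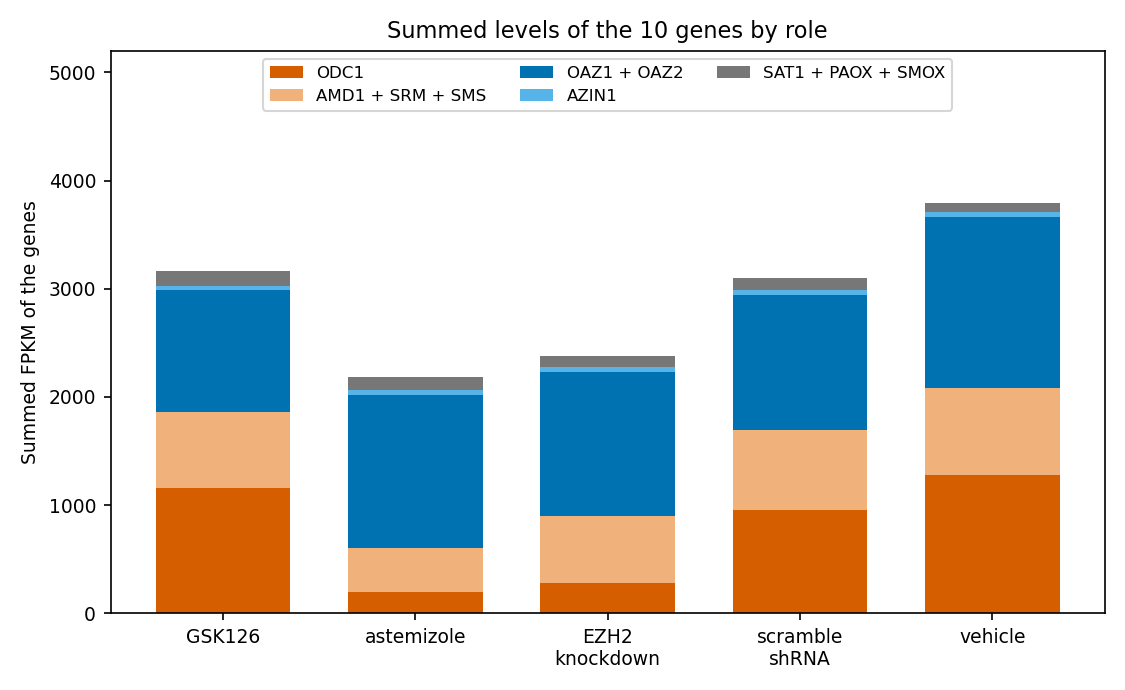
Summed FPKM of the 10 genes in each column, split into ODC1, the other synthesis enzymes, antizymes, antizyme inhibitor and breakdown enzymes. The ODC1 block is 198 and 276 FPKM with astemizole and knockdown and 958 FPKM or more in the other columns, while the antizyme block stays between 1126 and 1580 FPKM.

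Genes around the pathway were read from lists of the enzymes that supply it, use it or move its products. Counts are over the listed genes that reached 1 FPKM in some column. For astemizole, the background share past 2-fold was 3.54% upward and 5.50% downward over all genes compared. In lists of so few genes, 1 gene past 2-fold does not set a list apart from that background. Other polyamine enzymes had 1 of 6 at least 2-fold higher with astemizole and 0 lower, and 0 either way with GSK126 and knockdown. The higher one was SAT2, named as a relative of SAT1, at 65.5 FPKM with GSK126, 106 with astemizole, 61.8 in the knockdown column, 43.1 with scramble shRNA and 52.0 with vehicle. This list had a median of 0.13 with either drug and 0.20 with knockdown, beside medians over all genes of -0.04, -0.06 and 0.03.

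The methionine cycle and salvage genes, which provide and recover the aminopropyl donor, had a median over 14 genes of -0.16 under GSK126, -0.33 under astemizole and -0.23 under knockdown. With astemizole 1 of the 14 was at least 2-fold higher, and 0 were at 2-fold in any other case. That gene was MAT1A, the S-adenosylmethionine synthetase of liver, at 1.86 FPKM with GSK126, 5.66 with astemizole, 0.514 in the knockdown column, 0.735 with scramble shRNA and 1.14 with vehicle, while the summed liver markers were at 5.69 FPKM with astemizole and 21.5 FPKM with vehicle. MAT2B, a regulatory subunit of the widely expressed synthetase, had the lowest ratio with knockdown at -0.82. GNMT, the glycine methyltransferase that consumes S-adenosylmethionine, had -0.71, and ADI1, an enzyme of methionine salvage, had -0.68.

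Ornithine and arginine supply had medians of -0.21, -0.10 and -0.23 with GSK126, astemizole and knockdown over 11 genes, with 1 of 11 at least 2-fold higher with astemizole and 0 in the other cases. ARG2, the mitochondrial arginase that forms ornithine, was at 54.3 FPKM with GSK126, 81.2 with astemizole, 26.7 in the knockdown column, 38.2 with scramble shRNA and 30.5 with vehicle. Its log2 ratio was 0.81 with GSK126, 1.38 with astemizole and -0.50 with knockdown. ARG2 was thus highest in the column where ODC1 was lowest, but the other columns did not share this pairing. With knockdown both genes were lower than with scramble shRNA, and with GSK126 ARG2 was higher while ODC1 stood near vehicle. ALDH18A1 and PYCRL, enzymes of proline synthesis, had -0.83 and -0.87 with astemizole, and the mitochondrial ornithine carrier gene SLC25A15 had -0.75.

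Hypusination, the use of spermidine to modify the translation factor EIF5A, had 0 of 4 genes at 2-fold in any of the 3 comparisons, and medians of -0.32, -0.13 and 0.26. EIF5A itself was at 426 FPKM with GSK126, 377 with astemizole, 507 in the knockdown column, 476 with scramble shRNA and 594 with vehicle. Vehicle was again the highest value. DHPS and DOHH, the enzymes of the modification, had 0.45 and 0.43 with knockdown. DHPS at 75.0 FPKM in that column lay above both controls, at 54.6 with scramble shRNA and 58.8 with vehicle. DOHH at 17.2 FPKM lay between them, at 12.5 and 18.5, so its sign depended on the control. Of 6 polyamine transport genes 1 was at least 2-fold higher with astemizole, SLC3A2, a shared subunit of amino acid transporters, at 205 FPKM with astemizole against 86.8 with vehicle, and 0 were in the other comparisons. ATP13A3, a polyamine transporter, had 0.05 with GSK126, -0.62 with astemizole and -0.37 with knockdown. Of 10 genes of the MYC network 1 was at least 2-fold lower with astemizole, MXD3, a partner of MAX, at -1.34, and 0 were in the other comparisons.

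**Figure D5:**
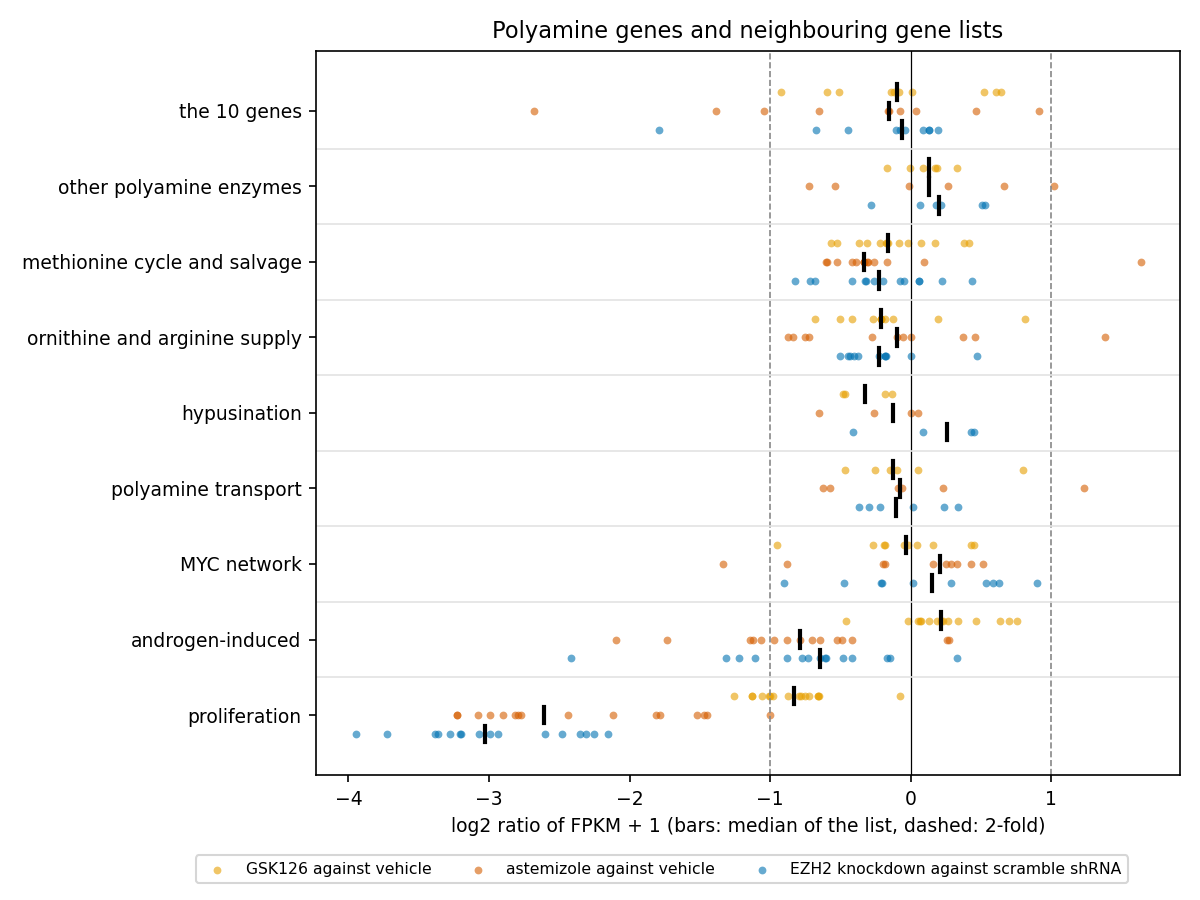
Log2 ratios of FPKM + 1 for every compared gene of each list in the 3 comparisons (yellow GSK126, orange astemizole, blue EZH2 knockdown); black bars are medians and dashed lines 2-fold. The 10 polyamine genes have medians of -0.10, -0.16 and -0.06, with ODC1 far to the left in the orange and blue rows, while the proliferation lists lie below 0 throughout.

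How multiply mapped fragments and strand were treated in counting is not stated in the labels, so some values may hold fragments of other loci. GENCODE names 4 processed copies of AMD1, 2 of SRM and 1 of ODC1. On the same strand 1 further gene each overlaps ODC1 (the small RNA gene SNORA80B), OAZ1 and PAOX. On the opposite strand 1 gene overlaps OAZ1, and 3 genes each overlap OAZ2 and AZIN1. SMS, SAT1 and SMOX had neither an overlapping gene nor a processed copy. SMOX is still uncertain for another reason, its low level of 1.22 to 3.18 FPKM.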

How the data were processed

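Polyadenylated RNA of C4-2 cells was sequenced by the authors, with 6 libraries in the labels, 2 of them EZH2 knockdown hairpins. The deposited table holds FPKM in 5 columns, per the labels, which name the unit. TopHat2, Cuffdiff and build hg19 are named in the submitters' processing notes (versions, annotation and options: not stated there). The single EZH2 knockdown column names no hairpin, and whether and in what way it combines the 2 libraries is unknown; it was used as deposited.

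From 28503 lines, 27 with names turned into dates and 1600 short RNA genes were left out, and the 12943 genes that reached 1 FPKM in some column entered the comparisons, as log2 of FPKM + 1 over the matched control (Python 3.11.15, pandas 2.3.3). Genes past 2-fold, and past 1.5-fold, were counted. The steps were tested on simulated data. With 1 value per condition no test was possible. Depth was approached from the spacing of values under 0.5 FPKM: relative to vehicle, the worth of 1 read was 0.946 with GSK126, 1.05 with astemizole and 0.859 with scramble shRNA.

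The polyamine genes and the other lists were chosen with earlier results of these data known. Named were the 10 genes, EZH2, MYC and KLK3, and up to 4 genes of each list with the largest ratios at 5 FPKM or more; KRT8 was named as a marker. A smaller pseudocount, other filters, rescaling, centring, the other control column and a lower fold were tried.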

Additional observations from a re-analysis of the deposited data

How the results depend on the processing

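With 1 value per condition, nothing could be left out within a group, and the depth behind the low genes PAOX and SMOX is unknown. No paired analysis was possible because each group has 1 column. At 1.5-fold in place of 2-fold, 4 of the 10 genes were counted with GSK126, 5 with astemizole and 2 with knockdown. At 1.5-fold against the other control column, a setting chosen after seeing the data, these counts were 1, 3 and 2. With astemizole the count at 2-fold was 4 with a pseudocount of 0.1 FPKM or after rescaling, in both cases through SMOX, and 2 after centring or against the scramble column, in both cases through SRM (-0.98 and -0.52). With vehicle as control, the median over the 10 genes with knockdown was -0.32. The GSK126 median became 0.10 after rescaling and 0.07 against the scramble column, and the astemizole median 0.01 against the scramble column. ODC1 ranged from -2.68 to -2.27 with astemizole and from -2.20 to -1.79 with knockdown. SMS ranged from -1.66 to -1.32 with astemizole. Of 177 single-gene values under the alternatives, 155 kept their side of 2-fold and lay within 0.25 of the value reported or stayed past 2-fold, 18 moved by more than 0.25, 2 passed 2-fold and 2 no longer did. This count overstates stability, because a filter on other genes cannot change a gene's own ratio. Centring moved all ratios of a comparison alike, by 0.06 with astemizole, and so could not pass 0.25. Nearly all values that moved did so with the other control column. The cause was not tested.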

Other observations

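The balance between neighbouring enzymes also differed within columns. The FPKM ratio of SMS to SRM, the spermine and spermidine synthases, was 2.01 with GSK126, 0.728 with astemizole, 0.921 in the EZH2 knockdown column, 1.61 with scramble shRNA and 0.925 with vehicle. The scramble and vehicle columns thus differed widely from each other. For AMD1 to SRM the ratio was 0.719, 1.19, 0.915, 1.08 and 0.903 in the same order, lowest with GSK126. The ratio of SMOX to PAOX, the oxidases of spermine and of acetylated polyamines, was 0.381, 0.523, 0.323, 0.232 and 0.178, lower in both controls than in the other columns. In the knockdown column SMOX itself lay between its controls at 1.24 FPKM, while PAOX was at its lowest, 3.84 FPKM. These are the lowest genes of the group, and the depth behind their values is unknown. The ratio of OAZ2 to OAZ1 stayed between 0.0500 and 0.0674, and that of AZIN1 to OAZ1 between 0.0275 and 0.0396.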
